A study of Mus musculus with 24 samples.

Results

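The 10 genes described here belong to the machinery of ferroptosis and of iron handling: Slc7a11, Gpx4, Aifm2, Acsl4, Sat1, Tfrc, Fth1, Ftl1, Ncoa4 and Slc40a1. They were taken by symbol from the 25239 genes of the all-samples expression table, and all 10 passed the filter on low values, as did 14104 genes in all. RNA-seq was done on 6 cell lines grown from individual small cell lung tumors of mice, and asked what p53 does to the transcriptome when it is switched back on. The tumors were started with an adenovirus that carries Cre under the CMV promoter, so every group shares the Cre-driven loss of Rb1 and Rbl2 and a Trp53 allele that is trapped in an inactive state. A FlpO-ER recombinase expressed from Rosa26 releases that allele when 4-hydroxytamoxifen (4-OHT) is given. The study sorted the lines by what followed: Type D lines (4711-1, 4711-18 and 4716-11, here lines 1, 2 and 3) lost viability and Type V lines (4711-11, 4716-10 and 4716-14, here lines 1, 2 and 3) stayed viable. Each line gave 4 libraries at 72 h, called Control (vehicle), Control + CsA, Restored (4-OHT) and Restored + CsA (4-OHT + CsA), where CsA is cyclosporin A, a drug that binds cyclophilins. This makes 8 groups of 3 libraries, with 1 library of each line in each group. No line without the FlpO-ER allele was analysed here, so an effect of 4-OHT itself and of p53 restoration cannot be told apart.

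Ferroptosis is a form of cell death in which iron drives the oxidation of polyunsaturated membrane lipids. Cells hold it off by importing cystine to make glutathione, which the enzyme Gpx4 uses to reduce lipid hydroperoxides, and by keeping reactive iron low. Iron enters bound to transferrin through the transferrin receptor, is stored in ferritin, is released when ferritin is degraded, and leaves through ferroportin. Slc7a11 is a known target repressed by p53, and Sat1 and Aifm2 are known p53-induced genes, which makes the set of interest where p53 is switched on.

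Part of the known regulation of some iron genes lies in the RNA. Iron regulatory proteins bind a hairpin, the iron-responsive element, and when iron is scarce they block translation from a hairpin in the 5′ UTR and stabilise an mRNA that has hairpins in its 3′ UTR. The pattern searched was a C, 5 bases, a loop of CAGTG followed by A, C or T, and 5 bases that pair with the first 5, G-U pairs included. Among the longest protein-coding transcripts of 21877 genes (GENCODE M21, GRCm38), 204 or 0.932% held it, and among the 10 genes 4 did. These elements are shown because they separate the importer, with 4 matches in its 3′ UTR, from the storage and export genes, with 1 each in the 5′ UTR. Each line gives 30 bases of the transcript, 5′ to 3′, with the 6-base loop in capitals.
Fth1 5′ UTR, chr19:9982732-9982761, plus strand: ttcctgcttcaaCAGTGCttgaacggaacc
Ftl1 5′ UTR, chr7:45459778-45459807, minus strand: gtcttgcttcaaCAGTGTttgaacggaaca
Slc40a1 5′ UTR, chr1:45925464-45925493, minus strand: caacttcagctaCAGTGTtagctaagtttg
Tfrc 3′ UTR, chr16:32631219-32631248, plus strand: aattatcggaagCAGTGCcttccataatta
Tfrc 3′ UTR, chr16:32631598-32631627, plus strand: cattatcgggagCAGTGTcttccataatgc
Tfrc 3′ UTR, chr16:32631663-32631692, plus strand: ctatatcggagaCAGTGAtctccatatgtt
Tfrc 3′ UTR, chr16:32631710-32631739, plus strand: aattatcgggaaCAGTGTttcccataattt
A match to the pattern is a description of these letters, and no binding was measured.

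Promoters of 9 of the 10 genes were found in a RefSeq table (GRCm38.p6) of windows running from 250 bases before a start site to 50 after it. The window of Slc7a11 was the only one of the 9 genes to hold the C/EBP-ATF element, TGATGNAA on either strand, which occurred in 3.97% of 32851 windows. It held 2 copies, and 0.07% of all windows held 2 or more. They are shown in capitals, at bases -66 to -59 and, on the opposite strand, -47 to -40, in the stretch from -100 to -11 (chr3:50443624-50443713, minus strand).
Slc7a11 promoter: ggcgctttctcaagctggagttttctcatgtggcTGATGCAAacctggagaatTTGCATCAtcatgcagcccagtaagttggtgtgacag
The antioxidant response element core TGACNNNGC was in a window of 1 of the 9 genes (Ncoa4) and in 12.4% of all windows, and the hypoxia response element ACGTG was in windows of 2 (Ncoa4 and Tfrc) and in 19.6% of all windows. The p53 decamer motif was in none of the 9 and in 8.36% of all windows, which speaks only of these letters in these windows.

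Values are TPM, a measure of transcript abundance that is scaled for transcript length and sums to 1000000 in each library, so levels of different genes can be set side by side but sequencing depth is unknown. The genes spanned a wide range of abundance. By mean TPM over the 24 libraries, Ftl1 ranked 5th of all genes at 4766 and Fth1 17th at 3062, while Slc40a1 was lowest of the 10 at 9.52. Between its lowest and highest library a gene varied by 3.07-fold (Sat1) to 52.7-fold (Slc7a11).

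**Figure D1:**
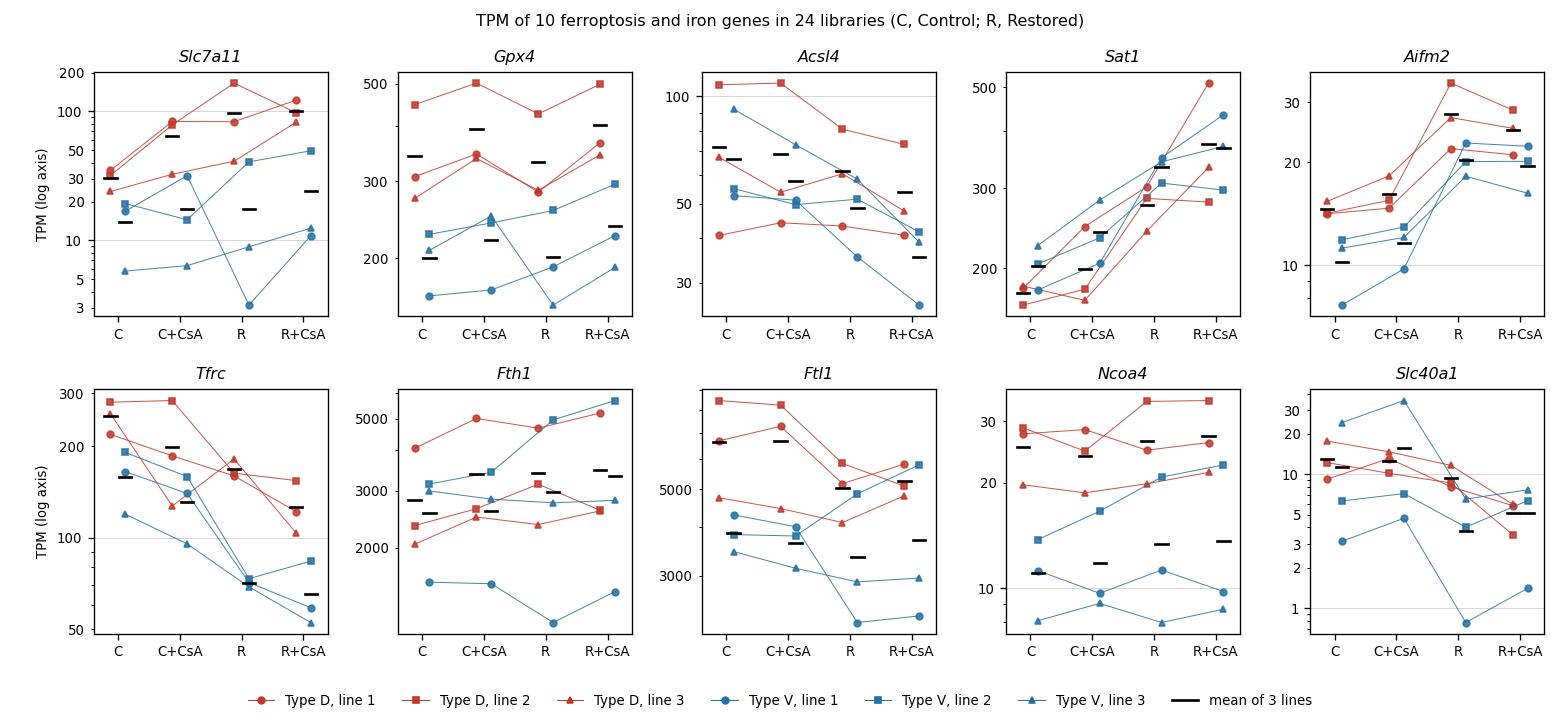
TPM of each of the 10 genes (log axis, scaled separately in each panel) in the 24 libraries, by treatment (C, Control, and R, Restored, each without and with CsA); a thin line joins the 4 libraries of a cell line, red for Type D and blue for Type V, and black bars are means of 3 lines. Slc7a11 and Gpx4 sit above Type V in the Type D lines under all 4 treatments, Tfrc steps down and Aifm2 and Sat1 step up from C to R in each of the 6 lines.

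The labels were checked first. Trp53 was at 10.5 to 15.3 TPM in the 12 libraries without 4-OHT and at 181 to 253 TPM in the 12 with it. Of 6 neuroendocrine markers Chga was listed at 0 in all 24 libraries and Calca in 21 of them, and the summed TPM of the 6 was 5.5 to 27.1 in Type D and 16.2 to 84.6 in Type V. The types also differed in collagen genes, since 5 fibroblast markers summed to 0.283 to 1.93 TPM in Type D and 17.9 to 521 TPM in Type V, with Lum at 0 in 19 libraries. Within Type V this sum also moved with restoration, at 185 to 457 TPM in Control and 27.4 to 184 TPM in Restored. With CsA it was 177 to 521 TPM in Control + CsA and 17.9 to 122 TPM in Restored + CsA. The markers did not all follow the sum. The highest value of Col1a1 was 401 TPM without and 136 TPM with 4-OHT, and that of Col1a2 194 and 13.1 TPM. That of Dcn was 62.1 and 71.9 TPM, while Pdgfra did not exceed 3.37 TPM and Lum 0.844 TPM in any library. The part of this sum in the Type V restoration results, Tfrc included, was not tested. Of 5 leukocyte and macrophage markers, Cd3e was at 0 in all libraries, Ptprc did not exceed 0.154 TPM and Adgre1 0.0449 TPM, but Cd68, a lysosomal protein, stood at 5.6 to 11.5 TPM without and 16.1 to 55.3 TPM with 4-OHT, and the 5 summed to 5.63 to 11.6 and 16.2 to 55.7 TPM. Endothelial markers (3 genes) summed to at most 0.615 TPM and erythroid markers (4 genes) to at most 1.39 TPM, with Hbb-bs and Hba-a1 at 0 in every library. These differences move with cell type and with restoration, and their part in the results below was not tested. In such bulk samples fewer cells of a type and less RNA per cell cannot be told apart.

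Differences are given as log2 differences of TPM + 1 with 95% intervals, from limma fitted to all 24 libraries with 1 mean per group, two-sided, with Benjamini-Hochberg adjustment over the 14104 genes tested. A gene is called where the adjusted p is under 0.05 and the difference is at least 1 log2. Because the 4 libraries of a line are paired, a fit with the cell line as a block is given where it changes a call. The block cannot be used between types, since a line belongs to 1 type. There the spread is estimated from all 24 libraries as if they were independent, so p-values between types can be too small.

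Ncoa4, the ferritin adaptor, was called between the types before restoration. The ratio of its mean TPM, Type D over Type V, was 2.3 in Control and 1.97 in Restored. Slc7a11 and Tfrc were called after restoration, at ratios of 5.51 and 2.36, but already stood at 2.16 and 1.59 in Control. For a difference between types in the response, 0 of the 10 genes were called. With lines left out, the call held in 1 of 6 fits for Ncoa4, 2 of 6 for Slc7a11 and 6 of 6 for Tfrc. The calls of Ncoa4 and Slc7a11 were also lost with the compared groups fitted alone. In Control, 1 of the 10 genes was called between the types, against 8.83% of all genes tested, and in Restored 2 of 10 against 9.44%. The median difference of the 10 genes was 0.63 log2 in Control, where the median of all tested genes was -0.12, and 0.68 log2 in Restored, where that of all genes was -0.07. Of the 10 genes 9 had positive estimates in each comparison, Sat1 being the exception in both.

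Slc7a11 (chr3:49892526-50443614) encodes xCT, the light chain of the cystine/glutamate antiporter. In Control it stood at 34.9, 31.8 and 23.9 TPM in Type D lines 1, 2 and 3 and at 16.8, 19.3 and 5.77 TPM in Type V lines 1, 2 and 3. In Restored it stood at 83.2, 166 and 41.1 TPM in Type D and at 3.14, 40.6 and 8.9 TPM in Type V. The Type D values lay above all Type V values in both treatments, although in Restored the lowest Type D line (line 3) and the highest Type V line (line 2) almost met. The difference between types was 1.19 log2 in Control (interval -0.37 to 2.76, adjusted p = 0.321 by limma) and 2.81 log2 in Restored (1.24 to 4.38, adjusted p = 0.0162). The call in Restored was lost when the 2 groups were fitted alone (adjusted p = 0.148). It was also lost without Type D line 1 (2.81 log2, adjusted p = 0.0883), Type D line 2 (2.32 log2, 0.11), Type V line 1 (2.05 log2, 0.0805) or Type V line 3 (2.68 log2, 0.0554).

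With restoration the lines did not move together in Slc7a11. All 3 Type D lines were higher in Restored than in Control, by 1.72-fold to 5.21-fold in TPM, and the mean difference was 1.44 log2 (-0.12 to 3.01, adjusted p = 0.245, with the cell line block 0.0506). In Type V, line 1 was at 0.187 of its Control level while lines 2 and 3 were higher, line 2 by 2.11-fold, and the mean difference was -0.17 log2 (-1.74 to 1.4, adjusted p = 0.958). Without Type V line 1 that mean was 0.79 log2. The difference between the types in their response was 1.62 log2 (-0.6 to 3.84, adjusted p = 1, with the block 0.252), so no difference in response was shown, and the interval leaves room for a large one. Over the 24 libraries the genes whose log2 levels followed Slc7a11 most closely were Atf4 (Pearson r = 0.954) and Ghitm (r = 0.929), a description over libraries that share 6 lines and 4 treatments.

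Gpx4 (chr10:80047166-80056439) encodes the selenoenzyme that reduces lipid hydroperoxides. Its TPM was 307, 448 and 274 in Type D Control and 164, 227 and 209 in Type V Control. In Restored it was 283, 427 and 286 in Type D and 191, 257 and 157 in Type V. All Type D values exceeded all Type V values in these and in both CsA treatments, with ratios of means of 1.65 to 1.79, but the difference missed the threshold in Control (0.76 log2, 0.23 to 1.28, adjusted p = 0.0534) and in Restored (0.72 log2, 0.19 to 1.24, adjusted p = 0.062). With restoration Gpx4 differed by -0.04 log2 in Type D (-0.57 to 0.48) and by less than 0.01 log2 in size in Type V (-0.53 to 0.52), so a mean change of a factor of 2 lies outside both intervals.

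Aifm2 (chr10:61715263-61739260) encodes FSP1, a reductase that regenerates ubiquinol as a lipid antioxidant independently of glutathione. It rose with restoration in both types by the adjusted p alone, without reaching 1 log2. In Type D it went from 14.1, 14.2 and 15.4 TPM to 21.9, 34.1 and 27 TPM, and in Type V from 7.65, 11.9 and 11.2 TPM to 22.8, 20.1 and 18.2 TPM. In each type every Restored value lay above every Control value. The differences were 0.86 log2 in Type D (adjusted p = 0.0055, with the block 0.000471) and 0.94 log2 in Type V (adjusted p = 0.00334, with the block 0.000268). The difference between types was -0.08 log2 (-0.65 to 0.49, adjusted p = 1). The losses that follow are from the fit without the block. The adjusted p exceeded 0.05 without Type D line 2 (0.116) or Type D line 3 (0.0587) for Type D, and without Type V line 1 (0.0735) for Type V. With the compared groups fitted alone the adjusted p was 0.0536 in Type D and 0.141 in Type V. Type D exceeded Type V in Control in every line, with a difference of 0.49 log2 that did not pass the test (adjusted p = 0.104), and the types overlapped in Restored (0.41 log2, adjusted p = 0.167).

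Sat1 (chrX:155213132-155216449), which encodes the spermidine/spermine acetyltransferase that starts polyamine breakdown, also rose by the adjusted p alone. In Type D it went from 181, 166 and 183 TPM to 302, 285 and 241 TPM, and in Type V from 179, 205 and 225 TPM to 349.9, 308 and 343 TPM. No Restored value overlapped a Control value of the same type. Sat1 rose by 0.64 log2 in Type D (adjusted p = 0.0398, with the block 0.00308) and by 0.72 log2 in Type V (adjusted p = 0.0245, with the block 0.00146). No difference between types in this response was shown (-0.08 log2, -0.67 to 0.51, adjusted p = 1). The losses that follow are from the fit without the block. For Type D the adjusted p exceeded 0.05 without Type D line 1 (0.0975), line 2 (0.222) or line 3 (0.107) or Type V line 3 (0.063), and for Type V without Type V line 1 (0.199), line 2 (0.0773) or line 3 (0.0946) or Type D line 3 (0.0519). It also exceeded 0.05 for Type D without the filter on low values (0.0526) or after median-ratio scaling (0.11), and for Type V with the compared groups fitted alone (0.0679). Between types it differed by -0.19 log2 in Control (adjusted p = 0.568) and by -0.28 log2 in Restored (adjusted p = 0.38).

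Acsl4 (chrX:142317993-142390535) encodes the acyl-CoA synthetase that loads polyunsaturated fatty acids into phospholipids. It stood at 40.7, 108 and 67.5 TPM in the Control libraries of Type D and at 52.6, 55.1 and 92 TPM in those of Type V. In Restored it stood at 43.3, 80.8 and 60.6 TPM in Type D and at 35.4, 51.4 and 58.5 TPM in Type V. The types overlapped under every treatment, and differed by 0.05 log2 in Control (adjusted p = 0.954) and 0.32 log2 in Restored (adjusted p = 0.602). With restoration Acsl4 differed by -0.16 log2 in Type D (adjusted p = 0.884) and by -0.43 log2 in Type V (adjusted p = 0.58), where each of the 3 lines was lower and the cell line block gave an adjusted p of 0.0294.

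**Figure D2:**
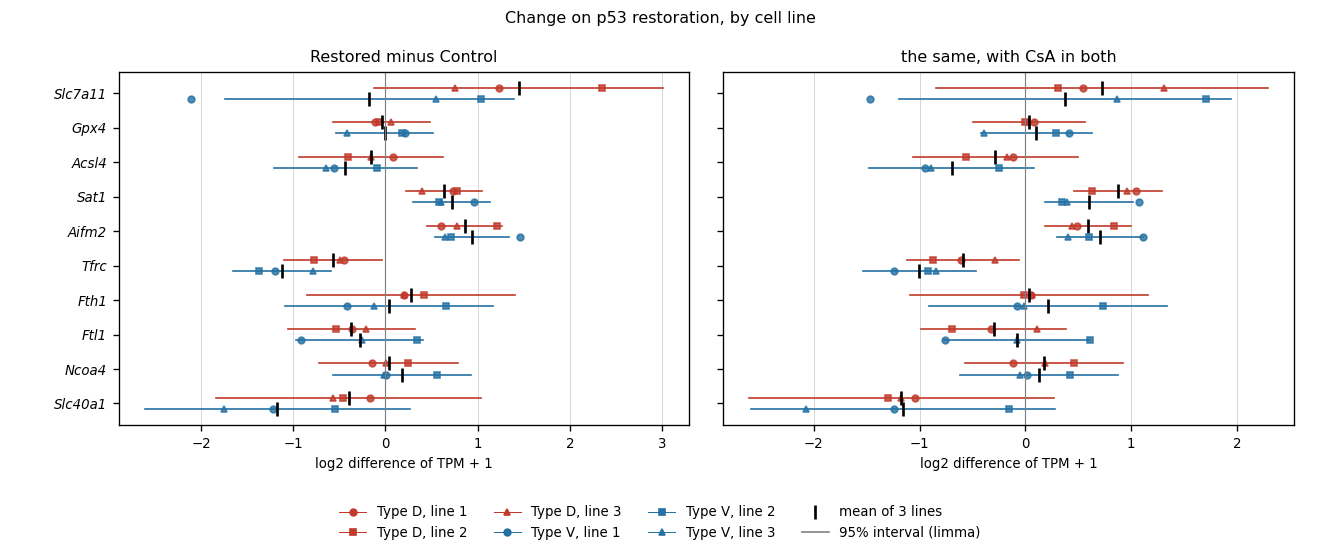
Change of each gene on restoration as a log2 difference of TPM + 1 (x axis), without CsA (left) and with CsA in both libraries (right); points are the 6 cell lines, black ticks the means of 3 lines and horizontal lines the 95% intervals from limma without a block. Aifm2 and Sat1 lie to the right of 0 and Tfrc and Slc40a1 to the left in every line of both types, and the Type V lines of Slc7a11 scatter on both sides of 0.

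Restoration as a whole moved few of the 10 genes past the full call. In Type D 0 of 10 were called, against 6.93% of all genes. At an unadjusted p under 0.05 there were 3 of 10, and 3563 of all 14104 genes. In Type V 1 of 10 was called, Tfrc, against 5.29%. By the adjusted p alone the counts were 2 of 10 in Type D (12.9% of all genes) and 3 of 10 in Type V (9.95%). With the cell line block 0 of 10 were called in Type D (11.2% of all genes) and 2 of 10 in Type V, Tfrc and Slc40a1 (8.66%), and by its adjusted p alone 3 of 10 in Type D (45.3%) and 5 of 10 in Type V (40.6%). A single gene is 10% of the 10, so the counts of full calls lie close to these background shares, and no share was tested against the background. For the difference of the response between types, 0 of 10 were called without the block, against 0.0284% of all genes. With the block 0 of 10 were called, and no share of all genes was taken for that fit. At an unadjusted p under 0.05 by limma without the block there were 0 of 10, and 540 of all 14104 genes.

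Tfrc (chr16:32608920-32632794), the transferrin receptor that brings in transferrin-bound iron, was the 1 member called lower with restoration in the fit without the block. In Type V it went from 165, 191 and 119.7 TPM in Control to 71.3, 73.4 and 69 TPM in Restored, that is to 0.384 to 0.576 of the Control level in each line. In Type D it went from 219, 279.8 and 256 TPM to 160, 163 and 182 TPM, or 0.584 to 0.73 of Control. In neither type did the Restored values overlap the Control values. Tfrc fell by 1.12 log2 in Type V (interval -1.65 to -0.59, adjusted p = 0.00702, with the block 0.000149). In Type D the difference was -0.57 log2 (-1.1 to -0.04, adjusted p = 0.162), which passed by the adjusted p with the block (0.0163). The difference between types in this response was 0.55 log2 (-0.21 to 1.3, adjusted p = 1, with the block 0.215). The Type V call was lost when its 2 groups were fitted alone (adjusted p = 0.0525), without Type V line 1 (-1.08 log2, 0.0872) and without Type V line 2 (-0.99 log2, 0.0571).

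The Type D lines held more Tfrc in Restored, where the difference of 1.23 log2 (0.7 to 1.76, adjusted p = 0.00302) was called under each of the 6 omissions of a line (1.17 to 1.26 log2, adjusted p of at most 0.0251). In Control the types did not overlap either, at 0.68 log2 (0.15 to 1.21, adjusted p = 0.0839). The genes with the most similar pattern over the 24 libraries were Gnai3 (r = 0.917) and Tomm22 (r = 0.915).

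Fth1 (chr19:9980598-9985098) and Ftl1 (chr7:45457944-45459884) encode the heavy chain of ferritin, which oxidises iron, and the light chain, which helps to form the mineral core. Both were among the most abundant mRNAs, and together they made up 0.345% to 1.23% of a library's TPM. Fth1 stood at 4051, 2341 and 2050.5 TPM in the Control libraries of Type D and at 1566, 3144 and 2992 TPM in those of Type V. In Restored it stood at 4674, 3138 and 2358 TPM in Type D and at 1176, 4956 and 2751 TPM in Type V. Type V line 1 was the lowest of the 6 lines and the types overlapped, at 0.13 log2 in Control (adjusted p = 0.907) and 0.37 log2 in Restored (adjusted p = 0.69). Restoration gave 0.28 log2 in Type D (adjusted p = 0.843) and 0.04 log2 in Type V (adjusted p = 0.992).

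Ftl1 stood at 6664, 8459 and 4761 TPM in the Control libraries of Type D and at 4303, 3828 and 3463 TPM in those of Type V, with no overlap. In Restored it stood at 5176, 5829.6 and 4112 TPM in Type D and at 2277, 4872 and 2895 TPM in Type V, and the types overlapped through Type V line 2. The difference between types was 0.74 log2 in Control (0.05 to 1.43, adjusted p = 0.149) and 0.65 log2 in Restored (-0.04 to 1.34, adjusted p = 0.198). Restoration gave -0.37 log2 in Type D (adjusted p = 0.558), where the 3 lines were each lower, and -0.28 log2 in Type V (adjusted p = 0.726), where line 2 was higher.

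Within a library the ratio of Ftl1 to Fth1 TPM does not depend on the library's scaling. It was lower in Restored than in Control in each of the 6 lines. In Type D it went from 1.64 to 1.11 in line 1, from 3.61 to 1.86 in line 2 and from 2.32 to 1.74 in line 3. In Type V it went from 2.75 to 1.94 in line 1, from 1.22 to 0.983 in line 2 and from 1.16 to 1.05 in line 3. With CsA in both libraries it was lower in 5 of the 6 lines. It went from 1.45 to 1.12 and from 3.12 to 1.95 in Type D lines 1 and 2, and from 2.59 to 1.62, from 1.11 to 1.02 and from 1.11 to 1.06 in the 3 Type V lines. Type D line 3 was higher, at 1.85 after 1.8. This ratio was formed after the values had been seen and is given as a description without a test.

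**Figure D3:**
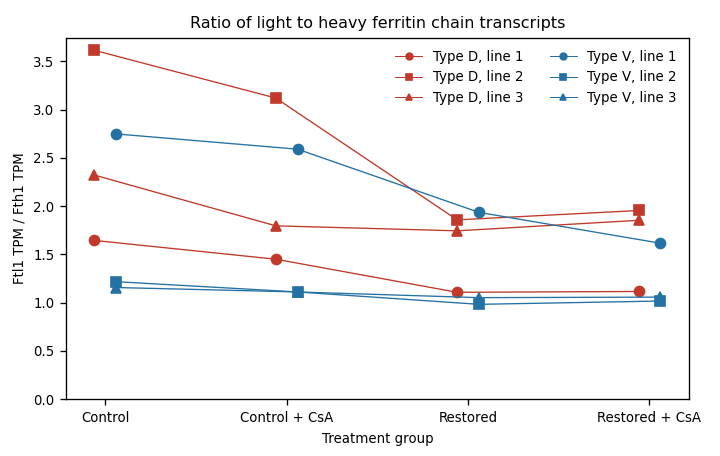
Ratio of Ftl1 to Fth1 TPM (y axis, linear from 0) in each of the 24 libraries by treatment; lines join the libraries of 1 cell line, red for Type D and blue for Type V. Every line is lower in Restored than in Control, 5 of 6 are lower in Restored + CsA than in Control + CsA, and the ratio in Type D line 2 goes from 3.61 to 1.86.

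Fth1, Ftl1 and Gpx4 are known to have processed pseudogenes in the mouse genome. Whether reads were shared with them was not tested, and how the authors divided such reads is not given in the sources used here. The 7 Fthl17 entries of the table, relatives of the ferritin heavy chain, were at 0 in all 24 libraries, and Sat2, a relative of Sat1, was at 2.16 to 10.5 TPM.

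Ncoa4 (chr14:32159865-32179855) encodes the receptor that delivers ferritin to the lysosome, which frees its iron. It stood at 27.6, 28.7 and 19.7 TPM in the Control libraries of Type D and at 11.2, 13.8 and 8.07 TPM in those of Type V, without overlap. In Restored it stood at 24.8, 34.1 and 19.9 TPM in Type D and at 11.3, 20.8 and 7.97 TPM in Type V, where Type V line 2 passed Type D line 3. The difference between types was 1.14 log2 in Control (0.39 to 1.89, adjusted p = 0.0409) and 0.99 log2 in Restored (0.24 to 1.74, adjusted p = 0.0693). The call in Control was lost without the filter on low values (adjusted p = 0.0583), with the 2 groups fitted alone (0.0721) and without Type D line 1 (0.188), line 2 (0.122) or line 3 (0.0703) or Type V line 1 (0.103) or line 3 (0.131), with differences of 0.95 to 1.31 log2. In Restored, a call was reached without Type V line 2 (1.34 log2, adjusted p = 0.00304). Restoration itself gave 0.03 log2 in Type D (adjusted p = 1, -0.10 log2 after quantile normalization) and 0.18 log2 in Type V (adjusted p = 0.863). The most similar patterns over the 24 libraries were those of 1700123O20Rik (r = 0.954) and Dqx1 (r = 0.953).

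Slc40a1 (chr1:45908068-45926523) encodes ferroportin, the only known iron exporter of mammals. It was the least abundant of the 10 and varied 45.4-fold over the 24 libraries, at 9.18, 12.2 and 17.7 TPM in Type D Control and 3.16, 6.32 and 24.3 TPM in Type V Control. In Restored it stood at 8.06, 8.6 and 11.6 TPM in Type D and at 0.781, 4.02 and 6.52 TPM in Type V. Every line was lower in Restored than in Control, at 0.658 to 0.878 of Control in Type D and 0.247 to 0.637 in Type V, and Type D and Type V overlapped in Control but not in Restored. The difference was -0.4 log2 in Type D (-1.84 to 1.04, adjusted p = 0.814, with the block 0.263) and -1.17 log2 in Type V (-2.61 to 0.27, adjusted p = 0.35). With the cell line block, which removes the level of each line (3.16 to 24.3 TPM in Type V Control), the Type V difference was called (adjusted p = 0.00321). No difference between types in the response was shown (0.77 log2, -1.26 to 2.81, adjusted p = 1, with the block 0.256). Between types it differed by 0.57 log2 in Control (adjusted p = 0.638) and 1.34 log2 in Restored (adjusted p = 0.203), a difference that was called without Type V line 3 (1.79 log2, adjusted p = 0.033).

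The restoration response was also measured with CsA in both libraries, which uses the other 12 libraries of the same 6 lines. Of the 10 genes 0 were called in Type D, against 5.41% of all genes, and in Type V 1 of 10, again Tfrc, against 4.61%. At an unadjusted p under 0.05 in Type D there were 3 of 10, and 3100 of all 14104 genes. By the adjusted p alone 1 of 10 passed in Type D (8.89% of all genes) and 2 of 10 in Type V (7.71%). With the block, 1 of 10 was called in Type D (9.69% of all genes) and 2 of 10 in Type V (7.97%), and by its adjusted p alone 4 of 10 in Type D (41.1%) and 5 of 10 in Type V (37.1%).

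With CsA present, Tfrc went from 140.1, 159 and 95.6 TPM to 58.9, 83.8 and 52.6 TPM in Type V. It fell there by 1 log2 (-1.53 to -0.47, adjusted p = 0.0177, with the block 0.000461), a call lost when the 2 groups were fitted alone (adjusted p = 0.164), without Type V line 1 (-0.88 log2, 0.184) and without Type V line 2 (-1.04 log2, 0.0537). In Type D it went from 186, 283 and 127 TPM to 122, 154 and 104 TPM (-0.59 log2, adjusted p = 0.173, with the block 0.0153). Sat1 rose by 0.88 log2 in Type D (adjusted p = 0.00694, with the block 0.000301), from 247, 180.2 and 170.3 TPM to 510.2, 279.7 and 333 TPM. Without the block it did not pass the adjusted p without Type D line 3 (0.107) or with the 2 groups fitted alone (0.113). In Type V, Sat1 went from 205, 234 and 283 TPM to 435, 297 and 371 TPM (0.6 log2, adjusted p = 0.0708, with the block 0.00568). Aifm2 rose by 0.7 log2 in Type V (adjusted p = 0.0289, with the block 0.0029). Without the block this did not hold without Type D line 3 (0.0761) or Type V line 1 (0.223), line 2 (0.0948) or line 3 (0.0609), or with the 2 groups fitted alone (0.247). In Type D, Aifm2 went from 14.7, 15.5 and 18.2 TPM to 21, 28.4 and 25.1 TPM (0.59 log2, adjusted p = 0.0661, with the block 0.00824).

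Slc40a1 with CsA present went from 13.1, 10.1 and 14.7 TPM to 5.83, 3.54 and 5.96 TPM in Type D, or 0.348 to 0.445 of the level in Control + CsA, with no overlap. In Type V it went from 4.69, 7.17 and 35.5 TPM to 1.41, 6.34 and 7.65 TPM. The differences were -1.17 log2 in Type D (adjusted p = 0.348) and -1.16 log2 in Type V (adjusted p = 0.397), and with the block both were called (adjusted p = 0.00319 and 0.00403). Acsl4 was lower in each of the 6 lines, by -0.28 log2 on average in Type D (adjusted p = 0.756, with the block 0.142) and -0.7 log2 in Type V (adjusted p = 0.326, with the block 0.00181). Slc7a11 differed by 0.72 log2 in Type D (adjusted p = 0.666) and 0.37 log2 in Type V (adjusted p = 0.896). The other 4 genes, Gpx4, Fth1, Ftl1 and Ncoa4, differed by -0.3 to 0.21 log2 with adjusted p of at least 0.686.

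The comparisons of CsA with its absence ask whether the drug itself moved these genes. By limma 0 of the 10 genes were called in any of the 4 comparisons, and 0 had an unadjusted p under 0.05 in the fit without the block. The background was as low, with 0% of all genes called for CsA added to Control in Type D, 0% in Type V, 0.0142% for CsA added to Restored in Type D and 0% in Type V. With the cell line block 0 of the 10 were called as well, against 0.0142%, 0%, 0.128% and 0% of all genes in the same order, but 1, 0, 4 and 1 of the 10 had an unadjusted p under 0.05, where 6.76%, 4.32%, 12.6% and 4.49% of all genes did. In Type D the blocked intervals left out 0 for Tfrc with CsA added to Control (-0.79 to -0.026 log2, adjusted p = 0.696). With CsA added to Restored they left out 0 for Slc40a1 (-1.37 to -0.19 log2, adjusted p = 0.236), Sat1 (0.073 to 0.72 log2, 0.279), Tfrc (-0.80 to -0.042 log2, 0.335) and Gpx4 (0.014 to 0.56 log2, 0.37). In Type V the 1 such gene was Acsl4 with CsA added to Restored (-0.75 to -0.12 log2, adjusted p = 0.855). Differences ran from -0.41 to 0.98 log2 for CsA added to Control in Type D and from -0.27 to 0.38 log2 in Type V, and from -0.78 to 0.4 log2 for CsA added to Restored in Type D and from -0.44 to 0.74 log2 in Type V. Without the block the intervals were wide for Slc7a11, for example -0.59 to 2.55 log2 for CsA added to Control in Type D, where the 3 lines stood at 83.5, 78.6 and 32.5 TPM and each was higher than in Control. Slc7a11 with both agents stood at 122, 97.8 and 82.2 TPM in Type D and 10.8, 49.5 and 12.4 TPM in Type V. Gpx4 was slightly higher with CsA in each of the 6 lines and both backgrounds, by 1.03-fold to 1.3-fold, and none of these mean differences passed the adjusted test with or without the block. It stood at 367, 499 and 345 TPM in Type D Restored + CsA and at 226, 295 and 191 TPM in Type V Restored + CsA.

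**Figure D4:**
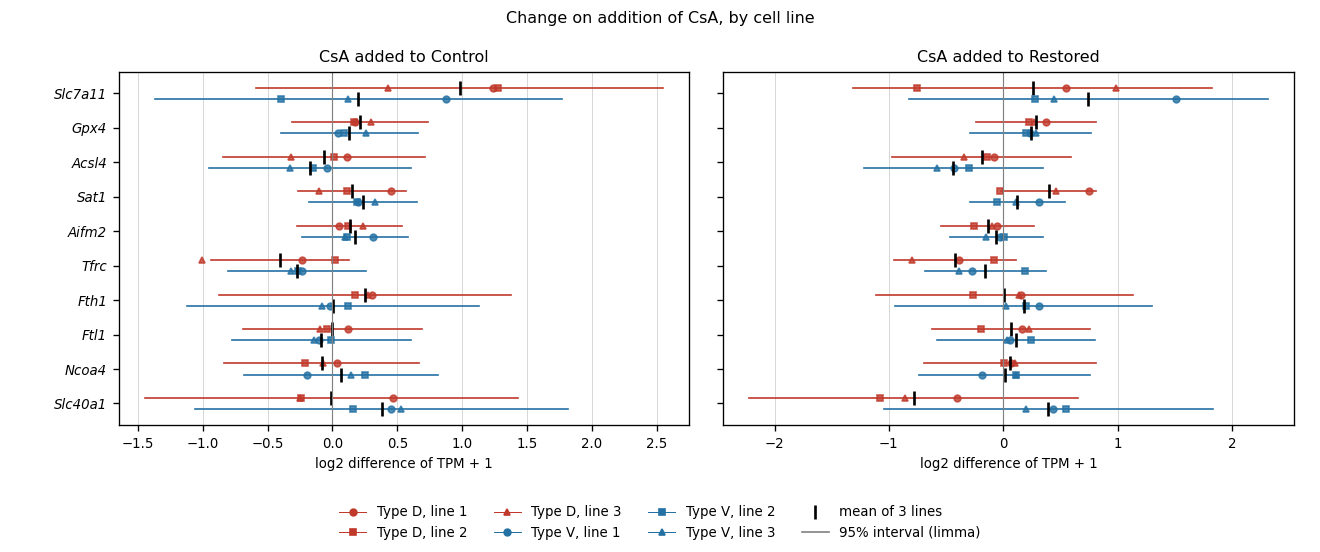
Change of each gene on addition of CsA to Control (left) and to Restored cells (right), as a log2 difference of TPM + 1 (x axis, scaled separately); points are the 6 cell lines, black ticks the means of 3 lines and horizontal lines the 95% intervals from limma without a block. All of these unblocked intervals include 0, and for Slc40a1 in Restored cells the 3 Type D lines lie left of 0 and the 3 Type V lines right of it.

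The surrounding pathway was read from a list of 83 other ferroptosis and iron genes in 9 groups, of which 73 passed the filter on low values. The 10 that did not were Alox5, Alox12, Alox12b, Alox15, Tfr2, Cybrd1, Heph, Hamp, Ftmt and Prom2. In Type D, restoration raised 6 of the 73 and lowered 1, against the 6.93% of all genes given above, with a median over the 73 of -0.13 log2 where that of all genes was 0.07. In Type V it raised 1 and lowered 2, against 5.29%, with a median of -0.02 log2 where that of all genes was 0.05. With the cell line block 16 and 7 of the 73 were called, against the 11.2% and 8.66% of all genes given above. The Type D count rested on single lines, at 4 without Type D line 1, 1 without Type D line 2 and 11 without Type V line 1 or line 2, and the Type V count was 1 without Type V line 1.

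Hmox1, the heme oxygenase that frees iron from heme, showed the largest change of the list. It rose in Type D from a mean of 142 TPM (SD 63.5, n = 3) to 2080.0 TPM (SD 921), by 9.01-fold to 24.9-fold in the 3 lines (3.83 log2, adjusted p = 0.00109 by limma). In Type V it went from 357 TPM (SD 125) to 1199.9 TPM (SD 1210.2), by 1.23-fold to 7.46-fold (1.33 log2, adjusted p = 0.294, with the block called at 0.0392). The difference between types was 2.5 log2 (adjusted p = 1). Hmox1 was the 1 gene of the list called for that difference with the block (adjusted p = 0.0451), a fit for which no share of all genes was taken. Without the block the list had 0 calls, against 0.0284% of all genes. It had 2 genes at an unadjusted p under 0.05, where 540 of all 14104 genes had one.

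Of the 11 genes of cystine import and glutathione, 2 were called in Type D, against 6.93% of all genes, and 1 in Type V, against 5.29%, all of them higher. Gclc, the catalytic subunit of the enzyme that limits glutathione synthesis, rose in both, by 1.47 log2 in Type D (2.32-fold to 3.16-fold, adjusted p = 0.0367) and by 1.77 log2 in Type V (1.84-fold to 5.49-fold, adjusted p = 0.0149). Chac1, which degrades glutathione, rose in Type D by 1.69 log2 (2.47-fold to 4.41-fold, adjusted p = 0.0338) and differed by 0.99 log2 in Type V (adjusted p = 0.27). Slc3a2, the heavy chain that partners Slc7a11, went from 223 TPM (SD 45.1) to 506 TPM (SD 187) in Type D, which was called only with the block (1.12 log2, adjusted p = 0.0632 without it and 0.00221 with it).

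Of the 13 tested genes of lipid remodelling and peroxidation, 2 were called in Type D, both higher, against 6.93% of all genes. Ptgs2, the inducible cyclooxygenase that is widely read as a ferroptosis-associated transcript, went from 109 TPM (SD 70.8) to 807 TPM (SD 342), a rise of 3.1 log2 (adjusted p = 0.0056), against 1.2 log2 in Type V (adjusted p = 0.345). Each of the 3 Type V lines was higher as well, by 1.58-fold to 4.3-fold. The study gave Type D cells inhibitors of apoptosis, ferroptosis, necroptosis and cyclophilins, and reports that only CsA protected all Type D lines from death. Whether Ptgs2 bears on that death was not tested. Aloxe3, a lipoxygenase family member, rose by 2.07 log2 in Type D (adjusted p = 0.00327) from a low level, 0.424 TPM (SD 0.24) to 5.55 TPM (SD 3.48), and differed by 1.32 log2 in Type V (adjusted p = 0.0628, with the block called at 0.00122).

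Most of the other lipid genes had lower estimates. The median of the 13 was -0.34 log2 in Type D, where 4 of 13 were positive, and -0.31 log2 in Type V, where 4 were positive. At an unadjusted p under 0.05 there were 10 of 13 in Type D, and 3563 of all 14104 genes. In Type V there were 4 of 13, and 3117 of all 14104 genes. With the block 6 of the 13 were called in Type D, against 11.2% of all genes, and 3 of 13 in Type V, against 8.66%. The desaturases Scd1, Fads1 and Fads2 and the acyl-CoA synthetase Acsl1 were lower in each of the 3 Type D lines and were called there only with the block. Scd1, which makes monounsaturated fatty acids, stood at 0.133 to 0.43 of its Control level (-1.92 log2, adjusted p = 0.141, with the block 4.24e-05). Acsl1 differed by -1.39 log2 (adjusted p = 0.0673, with the block 0.000176). Fads1 and Fads2, which make polyunsaturated fatty acids, differed by -1.02 log2 (adjusted p = 0.054, with the block 0.00231) and -1.26 log2 (0.105, with the block 0.00146). In Type V the block also gave calls for Scd1 (-1.61 log2, adjusted p = 0.262, with the block 0.000256) and Fads1 (-1.04 log2, 0.0576, with the block 0.00224), each lower in all 3 lines.

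Of the 11 genes of radical defence, 1 was called higher and 1 lower in Type D, against 6.93% of all genes. In Type V 1 was called lower, against 5.29%. Txnrd1, a thioredoxin reductase, rose in Type D by 1.21 log2 (adjusted p = 0.029) and differed by 0.46 log2 in Type V (adjusted p = 0.521). Dhcr7, which consumes the radical-trapping sterol 7-dehydrocholesterol, fell in both types, by 1.35 log2 in Type D (adjusted p = 0.00758) and 1.26 log2 in Type V (adjusted p = 0.0142).

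Lrp8, a receptor that takes up selenoprotein P, was the 1 called gene of 7 for selenoprotein synthesis, in Type V, against 5.29% of all genes there. It fell by 1.1 log2 in Type V (adjusted p = 0.0112) and by 0.97 log2 in Type D, which passed the adjusted p alone (0.0215). Hmox1 was the 1 called of 7 tested genes of heme turnover, storage and export without the block, in Type D, against 6.93% of all genes there. None of the 7 tested genes of iron uptake, the 5 of iron sensing, the 9 of mitochondrial iron and the 3 regulators was called in either type by limma without the block. With the block 2 of 7 iron uptake genes and 2 of 7 heme genes were called in Type D, against 11.2% of all genes. In Type V 0 and 1 were, against 8.66%. None of the iron sensing, mitochondrial iron and regulator genes was called with the block.

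**Figure D5:**
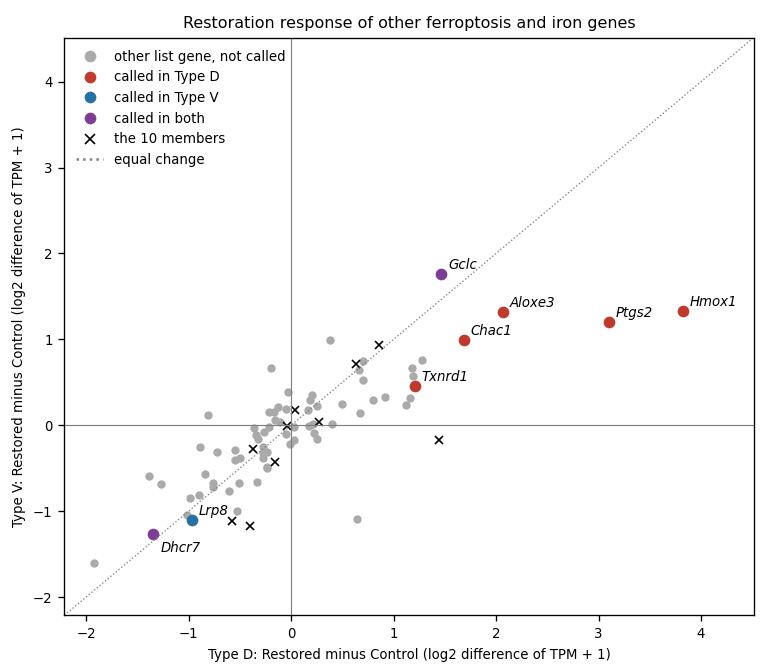
Restoration response in Type D (x axis) against Type V (y axis), each as a log2 difference of TPM + 1, for the 73 tested list genes (circles, named where called without the block) and the 10 genes of the report (crosses); the dotted line marks equal change. Gclc and Dhcr7 are called in both types, and Hmox1 and Ptgs2 lie farthest to the right at 3.83 and 3.1 log2 in Type D.

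Between the types in Control, 3 of the 73 list genes were called, all higher in Type D, against the 8.83% of all genes given above. Trf, which encodes the iron carrier transferrin that the product of Tfrc binds, stood at 39 to 166 TPM in Type D and 0.137 to 4.5 TPM in Type V (4.96 log2, adjusted p = 0.000362). Mboat1, a phospholipid acyltransferase, differed by 1.51 log2 (adjusted p = 0.00456) and Pla2g6, a phospholipase that clears oxidised phospholipids, by 1.22 log2 (adjusted p = 0.000971). The count was 5 without Type V line 2.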

How the data were processed

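The authors deposited 1 table of TPM values for the 24 libraries. Libraries were stranded and poly(A)-selected, reads were single-end, and the study names both kallisto and HISAT2 for alignment, without saying which made the table. The build is written as both mm10 and GRCm39, so it is uncertain. TPM holds no counts, so depth is unknown and count models were not used. Log2(TPM + 1) values of genes with at least 1 TPM in at least 3 libraries (14104 of 25239) were fitted in R 4.3.3 by limma 3.58.1, using a group-means model and moderated variances with a trend on abundance, with 11 comparisons adjusted separately. On this scale changes of low genes are understated. The fits with and without the block were tested on simulated data whose noise was independent between libraries and held no cell line effect. That test does not bear on how pairing affects the p-values. Figures used matplotlib 3.10.9 in Python 3.11.15. The members and lists were chosen with earlier results of these data known.

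All 10 members are named with their values. List genes are named where called (the 5 largest in each direction), and the most similar genes are the top 2 by Pearson r for each called member. Slc3a2, Scd1, Acsl1, Fads1, Fads2 and Txnrd1 (sixth in Type D) were named beyond that rule after their values were seen, and 1 marker gene is not reported here. Pairing comes from the labels, which give the cell line. After group means were removed, libraries of 1 line correlated with r of 0.599 to 0.929 (36 pairs), and libraries of other lines of the type with r of -0.727 to 0.0438 (96 pairs). P-values without the block take all 24 libraries as independent, although libraries of 1 line move together. Between types they therefore rest on fewer independent units than the fit assumes, and can be too small. The settings varied were the pseudocount (0.1), the filter (none, or 5 TPM), the scaling (quantile or median-ratio), the cell line as a block, a fit of the compared groups alone, no minimum change, and each line left out. The block with the adjusted p alone and the test of the CsA response between types were added after the data were seen. Gene and transcript positions come from GENCODE M21 (GRCm38), and promoters from RefSeq (GRCm38.p6).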

Additional observations from a re-analysis of the deposited data

Results flagged for a closer look

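Slc40a1 moved in opposite directions in the 2 types when CsA was added to Restored cells. In Type D it went from 8.06 to 5.83 TPM in line 1, from 8.6 to 3.54 TPM in line 2 and from 11.6 to 5.96 TPM in line 3, a mean difference of -0.78 log2. In Type V it went from 0.781 to 1.41 TPM, from 4.02 to 6.34 TPM and from 6.52 to 7.65 TPM, a mean difference of 0.39 log2. It drew attention because each of the 3 Type D lines was lower and each of the 3 Type V lines higher. The difference between the types, tested after it had been seen, was -1.18 log2 (interval -3.21 to 0.86, adjusted p = 1 by limma) and with the cell line block -1.18 log2 (-2.01 to -0.34, unadjusted p = 0.00863, adjusted p = 0.687), so it did not pass the adjustment over all genes. Of the 10 genes this was the only one with such a split, over the 4 changes examined. The split rests on signs alone, and a single one among so many gene and change pairs can arise by chance. How many of all genes showed one was not counted. Type V line 1, at 0.781 and 1.41 TPM, lay near the filter of 1 TPM. Groups of 3 libraries are too small for the test of single libraries that stand apart.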

How the results depend on the processing

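Differences of members that were not called and lay near 0 changed sign under some settings, and no called difference did. After quantile normalization Ncoa4 differed by -0.10 log2 with restoration in Type D, Ftl1 by 0.093 log2 in the response between types and, with CsA present, by 0.011 log2 in Type D and 0.051 log2 in Type V. After median-ratio scaling Ncoa4 in Type D was at -0.063 log2, and with CsA present Gpx4 and Fth1 in Type D were at -0.10 log2 each. With single lines left out, the difference between types in Control ran from -0.29 to 0.40 log2 for Acsl4, from -0.19 to 0.33 for Fth1 and from -0.00153 to 1.30 for Slc40a1, and in Restored from -0.18 to 0.86 for Fth1. The restoration response ran from -0.070 to 0.13 log2 for Ncoa4 in Type D, and in Type V from -0.78 to 0.79 for Slc7a11, from -0.12 to 0.20 for Gpx4, from -0.27 to 0.27 for Fth1, from -0.59 to 0.045 for Ftl1 and from -0.0050 to 0.28 for Ncoa4. With CsA present it ran in Type V from -0.30 to 1.29 log2 for Slc7a11, from -0.048 to 0.35 for Gpx4, from -0.046 to 0.36 for Fth1, from -0.42 to 0.26 for Ftl1 and from -0.017 to 0.22 for Ncoa4. The difference of the response between types ran from -0.24 to 0.074 log2 for Gpx4, from -0.15 to 0.039 for Sat1, from -0.25 to 0.18 for Aifm2, from -0.42 to 0.22 for Ftl1 and from -0.25 to 0.039 for Ncoa4.

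Counts of members called between types moved from 1 to 0 in Control without the filter or with the compared groups alone, and from 2 to 1 in Restored with the compared groups alone. With lines left out the Control count was 0 to 1 and the Restored count 1 to 3. For restoration in Type D the count of 0 became 2 with no minimum change and 3 with the block and the adjusted p alone, and stayed at 0 with any line left out. In Type V the count of 1 became 2 with a pseudocount of 0.1 or with the block, 0 with the compared groups alone, 3 with no minimum change and 5 with the block and the adjusted p alone, and ran from 0 to 2 with lines left out. With CsA present the Type D count of 0 became 1 with the block, 1 with no minimum change and 4 with the block and the adjusted p alone (0 to 1 with lines left out). The Type V count of 1 became 2 with the block, 0 with the compared groups alone, 2 with no minimum change and 5 with the block and the adjusted p alone (0 to 1 with lines left out). The list count in Type D, 7, became 11 after quantile normalization, 16 with the block, 3 with the compared groups alone and 13 with no minimum change (1 to 11 with lines left out). In Type V its count of 3 became 7, 1 and 9 under the last 3 settings (1 to 4 with lines left out), and in Control between types it ran from 3 to 5. Apart from Slc40a1 with restoration in Type V and in both types with CsA, pairing by the block changed no call of a member. The cause of these shifts was not tested.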
